A study of Homo sapiens with 6 samples.

Results

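The expression of 10 genes used to describe the lineage and state of glioma cells was followed in RNA sequencing of 3 established glioblastoma cell lines. They were taken from a list of gene names: the transcription factors SOX2, SOX4, SOX9, OLIG2 and NFIA, the intermediate filament genes NES and GFAP, the membrane proteins PROM1 and CD44, and the secreted protein CHI3L1. All 10 were found among the 59074 genes listed, and 8 of them belonged to the 14294 genes whose mean over the libraries reached 1 CPM (read counts scaled to library size), while OLIG2 and PROM1 lay below this limit.

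The cell lines were LN-229, T98G and U251, and each was transfected with siPOOLs (pools of siRNAs) that were either non-target (siControl) or directed against the long non-coding RNA HOTAIRM1 (siHOTAIRM1). RNA was isolated 72 h later, and each combination of line and treatment gave 1 library (6 in all). LN-229 is so named in its cell line entry, and LNT229 in the sample titles. The 3 cell lines therefore served as the replicates of the knock-down, and the 2 libraries of a line as the replicates of that line. The latter share their culture source and differ in treatment. The p-values between cell lines measure only the spread left after the terms for line and treatment, not that between independent cultures of a line. This spread had 2 residual degrees of freedom per gene. It was moderated over all genes tested (32.5 prior degrees of freedom), so that very small p-values rest mostly on the latter.

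In the developing brain, neural stem cells carry SOX2 and nestin (NES) and lose them as they differentiate. NFIA and SOX9 act early in the switch to glia, after which GFAP marks astrocytes and OLIG2 the oligodendrocyte lineage. Glioblastomas combine such programs with a mesenchymal state, for which CD44 and CHI3L1 are common markers.

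The libraries held 52.3 to 104 M reads, of which 31.2 to 56.6 M fell on the listed genes, and 3 reads, taken as the smallest detectable level, corresponded to 0.0289 to 0.0574 CPM. The listed genes took 42.9 to 67.2% of the CPM scale, with the highest share in the U251 siControl library, in which the abundant RNA RN7SL1 made up 9.01% of the listed sum against 4.99% in U251 siHOTAIRM1. HOTAIRM1 itself was at 1.99, 3.49 and 1.27 CPM in the siControl libraries of LN-229, T98G and U251, and at 0.952, 2.15 and 0.623 CPM in the respective siHOTAIRM1 libraries. It was lower in all 3 cell lines, by 0.54 on the scale of log2(CPM + 1) (SE 0.12, limma, adjusted p = 0.0146), but without T98G the adjusted p was 0.435. Of 9 leukocyte and endothelial markers none reached the mean of 1 CPM, and their summed level was 0.466 to 5.38 CPM, from CLDN5 at 0 reads in all libraries to CDH5 and CSF1R, which were at 1 CPM or more in both U251 libraries.

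For CHI3L1 and SOX2, which were at 0 to 2 reads in at least 1 cell line and at 224 or more reads in another, parts of the promoter are shown, each read 5' to 3' on the strand of the gene. They were taken from RefSeq (GRCh38.p14), which gave windows of 250 bases before a transcription start for 7 of the 10 genes (12 windows). The capitals mark a TATA box (TATAAA) in CHI3L1, the core letters of a SOX motif (ACAAAG or ACAATG) in SOX2, and a CCAAT box in reverse orientation in SOX2.
CHI3L1, 27 bases before the start, chr1:203186714-203186743, minus strand: gtgggacaggtaTATAAAggaagtacaggg
SOX2, 220 bases before the start, chr3:181711693-181711722, plus strand: gcgagaggggatACAAAGgtttctcagtgg
SOX2, 47 bases before the start, chr3:181711866-181711895, plus strand: cgccgcgcgctgATTGGtcgctagaaaccc

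With both strands searched, TATAAA was found in 10.7% of all 35116 windows and in 1 of the 12 windows of the marker genes, that of CHI3L1. The SOX letters were found in 21.2% of all windows and in 1 of 12, that of SOX2, and CCAAT in 32.0% and in 4 of 12 (SOX2, SOX4, PROM1 and NFIA). These matches describe the letters only.

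SOX2, a transcription factor that maintains neural stem cells, lies on chromosome 3 from 181711925 to 181714436 (hg38, plus strand) and has a single exon. It was at 8.15 CPM in LN-229 siControl and 8.60 CPM in LN-229 siHOTAIRM1 (719 and 894 reads). In T98G it had 1 read in siControl and 0 reads in siHOTAIRM1, which allows up to 0.0412 CPM at 3 reads. In U251 it was at 91.4 and 117 CPM (4778 and 11873 reads). The levels of the 3 cell lines did not overlap, with U251 highest and T98G at or below the detectable level. In RNA from whole cultures, fewer expressing cells and less RNA per cell cannot be told apart. U251 was 12.9-fold higher than LN-229 (95% interval 12.3 to 13.6, exact, counting error only), and LN-229 was 1190-fold higher than T98G (213 to 47030, based on 1 read in T98G). The log2 difference was 3.48 (SE 0.18, limma, adjusted p = 9.14e-19) for U251 against LN-229 and -3.22 (SE 0.18, limma, adjusted p = 8.70e-18) for T98G against LN-229.

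SOX2 lies within the long non-coding gene SOX2-OT on the same strand, with 0 bases shared between the exons of their canonical transcripts. SOX2-OT was at 0.861 and 1.06 CPM in LN-229, at 2 reads and 1 read in T98G, and at 146 and 141 CPM in U251. The order of the cell lines was thus that of SOX2.

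SOX4, a SOX factor of progenitor cells, was the only member with both libraries of all cell lines above 10 CPM apart from CD44. Its gene lies on chromosome 6 from 21593751 to 21598619 (plus strand, 1 exon). It was at 11.2 and 14.1 CPM in LN-229, 29.3 and 35.3 CPM in T98G, and 46.8 and 57.6 CPM in U251, siControl first. The cell lines did not overlap, and the order was LN-229, T98G, U251. T98G was 2.54-fold (2.42 to 2.67) and U251 4.22-fold (4.04 to 4.42) higher than LN-229. The step from T98G to U251 was 0.67 on the log2 scale (SE 0.17, limma, adjusted p = 0.000885), but with libraries scaled to the summed CPM of the listed genes it was 0.28 (adjusted p = 0.119).

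NES encodes nestin, the intermediate filament of neural stem cells, and lies on chromosome 1 from 156668763 to 156677407 (minus strand, 4 exons). It was at 368 and 360 CPM in LN-229, at 0.956 and 0.866 CPM in T98G (66 and 63 reads), and at 329 and 507 CPM in U251. T98G lay below all other libraries, and the U251 libraries lay on either side of those of LN-229. LN-229 was 399.5-fold (336 to 479) and U251 490.5-fold (413 to 588) higher than T98G, log2 differences of -7.58 for T98G against LN-229 and 7.74 for U251 against T98G (SE 0.19 for both, limma, adjusted p = 1.07e-27 and 1.02e-27). LN-229 and U251 did not differ beyond the spread (log2 0.17, SE 0.19, limma, adjusted p = 0.461, 95% interval -0.22 to 0.55).

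PROM1, which encodes the stem cell surface antigen CD133, lies on chromosome 4 from 15963076 to 16084378 (minus strand, 28 exons). It had 4 reads and 1 read in LN-229, 3 and 3 in T98G, and 1 and 2 in U251, or 0.00972 to 0.0454 CPM. Thus, PROM1 did not exceed the detectable level by more than 1 read in any library, and no difference was detectable at this depth. PROM2, the other prominin, brought the summed level of the pair to 0.0568 to 0.261 CPM.

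SOX9, a factor needed for glial specification, lies on chromosome 17 from 72121020 to 72126416 (plus strand, 3 exons). It had 2 and 3 reads in LN-229 (0.0228 and 0.0290 CPM), and was at 10.3 and 11.5 CPM in T98G and 31.6 and 47.1 CPM in U251. The cell lines did not overlap, and LN-229, which had SOX2, was at the detectable level of SOX9, whereas T98G showed the converse. T98G was 420.5-fold (180 to 1297) and U251 1607-fold (688 to 4950) higher than LN-229, and U251 was 3.82-fold higher than T98G (3.61 to 4.04, log2 1.73, SE 0.18, limma, adjusted p = 2.73e-10). SOX9 lies within SOX9-AS1 on the opposite strand, and the TruSeq v2 kit does not keep the strand. SOX9-AS1 had 0 to 2 reads in LN-229 and was at 0.246 and 0.646 CPM in T98G and 1.68 and 1.88 CPM in U251, well below SOX9 in the latter lines, and the canonical exons share 0 bases.

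NFIA, a factor that starts astrocyte formation, lies on chromosome 1 from 60865259 to 61462788 (plus strand, 11 exons in the canonical transcript). It was at 18.0 and 14.1 CPM in LN-229, 6.89 and 8.24 CPM in T98G, and 7.56 and 5.00 CPM in U251. LN-229 was above the other lines, which overlapped each other. LN-229 was 2.10-fold (interval from 1.959 to 2.25) higher than T98G and 2.71-fold (2.52 to 2.93) higher than U251. T98G and U251 did not differ beyond the spread (log2 -0.25 for U251 against T98G, SE 0.19, limma, adjusted p = 0.239, 95% interval -0.63 to 0.13), but scaling to the summed CPM of the listed genes gave -0.60 (adjusted p = 0.0250).

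GFAP, the intermediate filament of astrocytes, lies on chromosome 17 from 44903159 to 44916937 (minus strand, 9 exons). It was at 0.317 and 0.298 CPM in LN-229 (28 and 31 reads), had 3 and 4 reads in T98G, and was at 42.5 and 20.7 CPM in U251. Both U251 libraries were far above the others, and both T98G libraries were near the detectable level. U251 was 91.8-fold (71.0 to 121) higher than LN-229, a log2 difference of 4.56 (SE 0.19, limma, adjusted p = 1.49e-21). LN-229 was 6.22-fold higher than T98G (2.84 to 16.1), but on the scale of log2(CPM + 1) the difference was -0.32 (SE 0.19, limma, adjusted p = 0.150), and with 0.1 CPM added in place of 1 it was -1.45 (adjusted p = 2.41e-07).

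OLIG2, a factor of oligodendrocyte progenitors, lies on chromosome 21 from 33025935 to 33029196 (plus strand, 2 exons). It was at 1.43 and 1.69 CPM in LN-229 (126 and 176 reads), 0.956 and 0.578 CPM in T98G (66 and 42 reads), and had 3 and 0 reads in U251. The cell lines did not overlap. LN-229 was 2.06-fold (1.65 to 2.59) higher than T98G, and T98G was 39.0-fold (12.98 to 192) higher than U251. OLIG2 was not tested across samples because its mean was below 1 CPM.

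CD44, the hyaluronan receptor and a marker of the mesenchymal state, lies on chromosome 11 from 35138882 to 35232402 (plus strand, 18 exons). It was at 329 and 304 CPM in LN-229, 780.4 and 623 CPM in T98G, and 819 and 572 CPM in U251. Both LN-229 libraries were below all others, while T98G and U251 overlapped. T98G was 2.21-fold (2.19 to 2.24) and U251 2.08-fold (2.06 to 2.10) higher than LN-229, log2 differences of 1.14 and 1.11 (SE 0.24 for both, limma, adjusted p = 0.000142 and 0.000163). T98G and U251 did not differ beyond the spread (log2 -0.03, SE 0.24, limma, adjusted p = 0.934, 95% interval -0.51 to 0.46).

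CHI3L1, which encodes the secreted glycoprotein YKL-40, lies on chromosome 1 from 203178931 to 203186704 (minus strand, 10 exons). It had 0 and 2 reads in LN-229, 664 and 224 reads in T98G (9.61 and 3.08 CPM), and 2 and 0 reads in U251. Only T98G exceeded the detectable level. It was 602-fold higher than LN-229 (166 to 4978) and 480.5-fold higher than U251 (133 to 3974), both on 2 reads in the lower line. The mesenchymal marker pair therefore differed between lines: T98G had both CD44 and CHI3L1, and U251 had CD44 at a level that did not differ beyond the spread, with CHI3L1 at 2 and 0 reads.

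**Figure D1:**
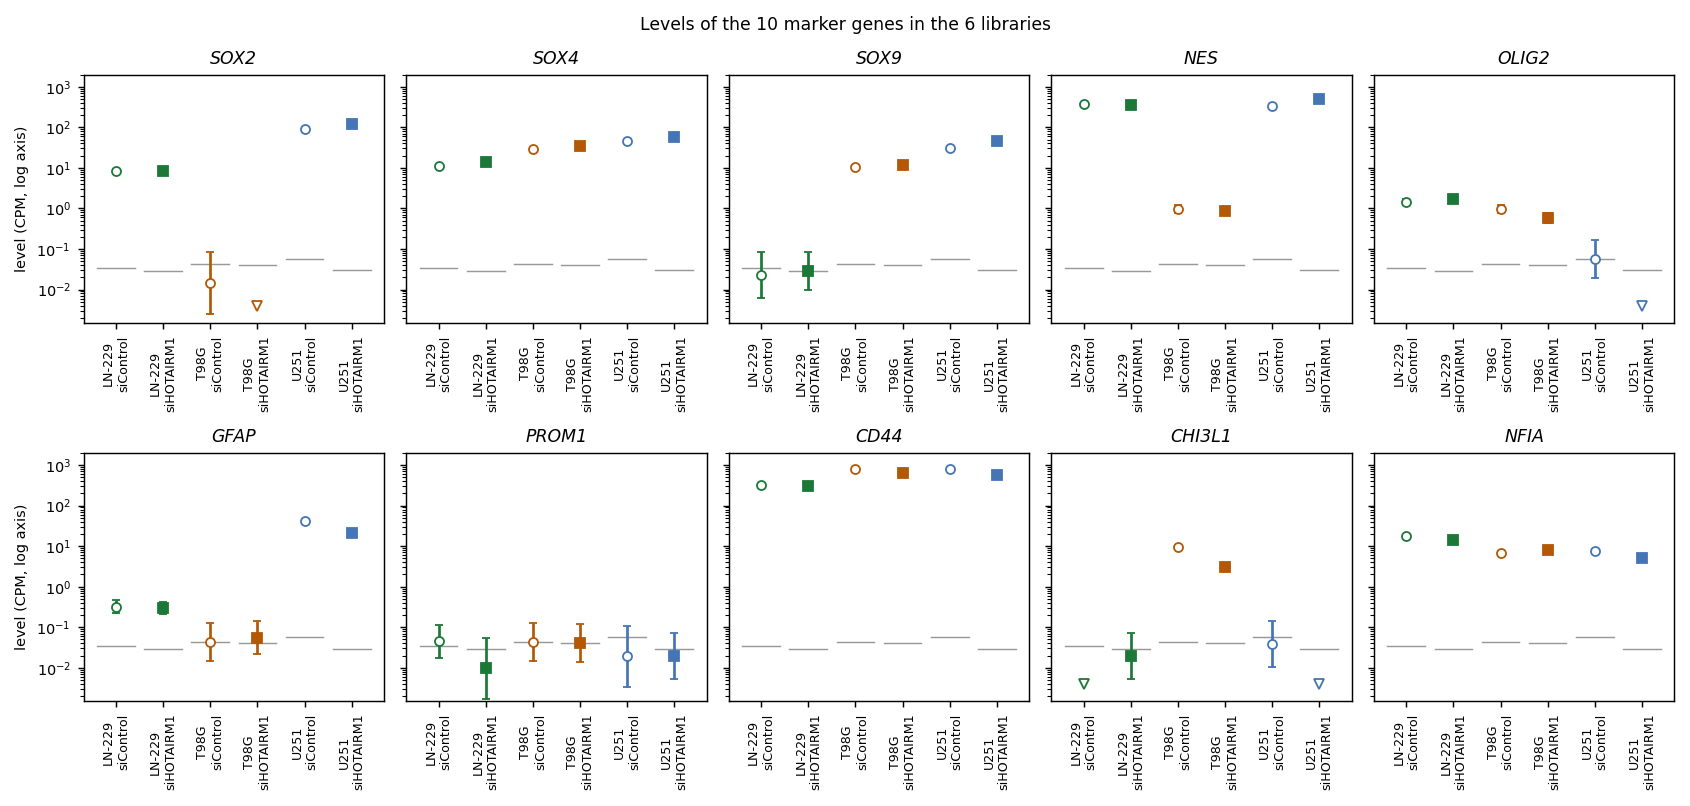
Level of each of the 10 marker genes (CPM, log axis) in the 6 libraries, with LN-229 in green, T98G in orange and U251 in blue, siControl as open circles and siHOTAIRM1 as filled squares, 95% Wilson intervals of the reads as bars, the level of 3 reads as grey lines and libraries with 0 reads as open triangles placed at the bottom. NES spans 0.866 to 507 CPM, SOX2 is highest in U251, CHI3L1 is above the grey lines in T98G only, and PROM1 stays near them in all libraries.

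Of the 8 marker genes tested, 7 differed between T98G and LN-229 in the fit over all genes, 4 higher in T98G (SOX4, SOX9, CD44 and CHI3L1) and 3 lower (SOX2, NES and NFIA). Among all genes tested, 54.9% differed in this comparison, 24.1% higher and 30.8% lower. Between U251 and LN-229, 6 of 8 differed, 5 higher in U251 (SOX2, SOX4, SOX9, GFAP and CD44) and 1 lower (NFIA), against 60.6% of all genes (36.7% higher, 23.9% lower). Between U251 and T98G, 6 of 8 differed, 5 higher in U251 (SOX2, SOX4, SOX9, NES and GFAP) and 1 lower (CHI3L1), against 64.2% of all genes (41.0% higher, 23.1% lower). The split of all genes depended on the scaling: with libraries centred on their median the share of higher calls moved from 64.0 to 50.5% in the last comparison, and with libraries scaled to the summed CPM of the listed genes to 40.9%, and from 60.5 to 38.0% for U251 against LN-229. The median log2 difference of the 8 was 0.41, 1.54 and 1.20 in the 3 comparisons, against -0.08, 0.15 and 0.22 over all genes.

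**Figure D2:**
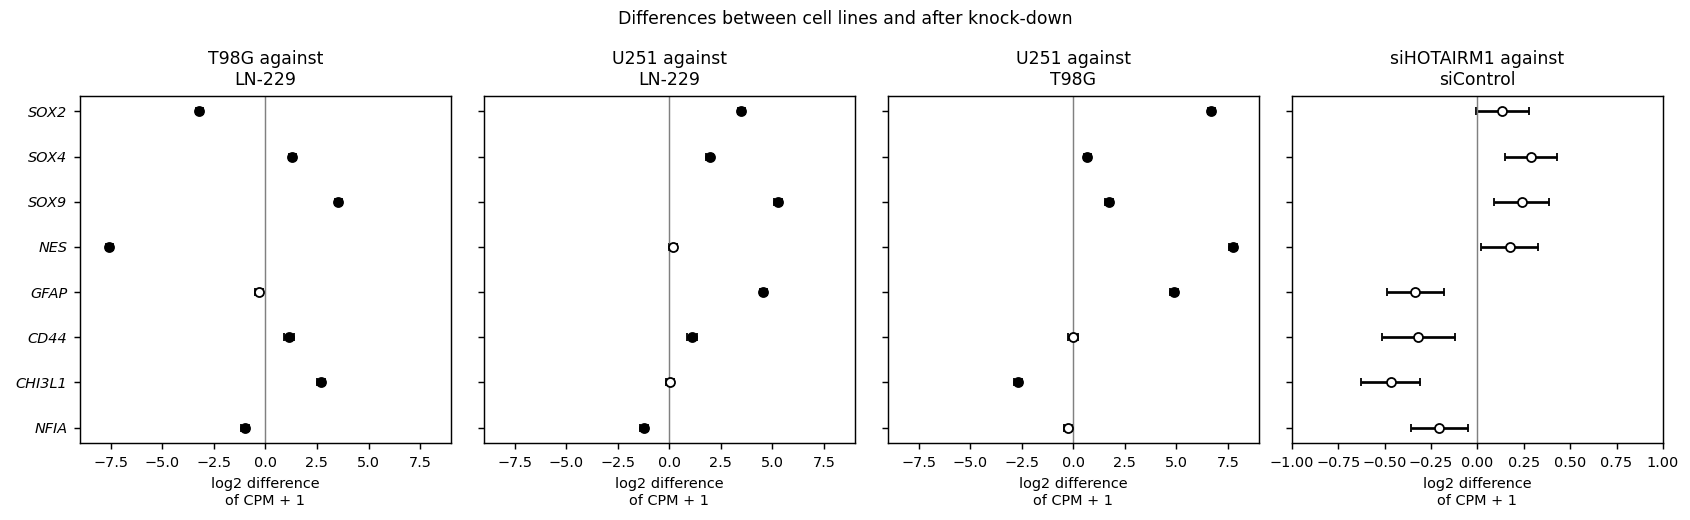
Log2 difference of CPM + 1 (points) with its SE (bars) of the 8 marker genes tested, for the 3 comparisons of cell lines and for siHOTAIRM1 against siControl, with filled points for an adjusted p under 0.05; the last panel has a narrower axis. Differences between cell lines reach -7.58 and 7.74 for NES, and the differences on knock-down lie between -0.47 and 0.29 with no filled point.

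Levels of different genes were compared per kilobase of the canonical transcript. In LN-229, NES came first (66.1 and 64.6 CPM per kb), followed by CD44 (60.7 and 56.0) and then by SOX2 (3.24 and 3.42). In T98G, CD44 came first (144 and 115 CPM per kb) and SOX4 second (6.01 and 7.26), with CHI3L1 at 5.50 and 1.76 and SOX9 at 2.63 and 2.93. In U251, CD44 (151 and 105 CPM per kb), NES (59.1 and 91.0) and SOX2 (36.4 and 46.7) led, followed by SOX4 (9.61 and 11.8) and SOX9 (8.03 and 11.98), which changed places between the libraries. CD44 was thus the first or second of the 10 in all libraries, whereas NES was the seventh in T98G.

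Knock-down of HOTAIRM1 moved no marker gene past the threshold. None of the 8 tested had an adjusted p under 0.05 (limma, 3 cell lines), while 3 (SOX4, GFAP and CHI3L1) had an unadjusted p under 0.05. Among all genes tested 2.0% passed, 0.413% higher and 1.59% lower in siHOTAIRM1, and 2622 of 14294 had an unadjusted p under 0.05. Higher in siHOTAIRM1 were 20.6% of those past the threshold, and with libraries centred on their median 41 passed, 36.6% of them higher. The median log2 difference of the 8 marker genes was -0.04, and that of all genes -0.07. Within the lines, the median log2 difference over the tested genes was 0.01 for LN-229, -0.19 for T98G and -0.03 for U251, and values in T98G are therefore also given relative to this median where stated. There was no replicate within a cell line, so that the intervals given for a single line cover counting error and no test was made of a difference between lines.

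SOX4 was higher after knock-down in all 3 cell lines, by 26.1% in LN-229 (95% interval 16.4 to 36.7), 20.7% in T98G (13.9 to 27.9) and 23.1% in U251 (17.4 to 29.02). All of these intervals lay above 0. With libraries scaled to the summed CPM of the listed genes, the log2 ratios were 0.29, 0.50 and 0.57 in place of 0.33, 0.27 and 0.30. The mean difference was 0.29 on the log2 scale (SE 0.14, limma, unadjusted p = 0.0458, adjusted p = 0.262). Since the lines differ more from each other than the conditions do, the siControl (11.2 to 46.8 CPM) and siHOTAIRM1 (14.1 to 57.6 CPM) values overlapped.

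CD44 was lower in all 3 cell lines, with a difference of -7.62% in LN-229 (interval -9.08 to -6.13), -20.2% in T98G (-21.2 to -19.2) and -30.2% in U251 (-31.02 to -29.3). The mean difference was -0.32 on the log2 scale (SE 0.20, limma, adjusted p = 0.394). Relative to the median of the line, the change in T98G was -0.14 in place of -0.33. With libraries scaled to the summed CPM of the listed genes, the log2 ratios of CD44 were -0.16, -0.10 and -0.25, still below 0 in each line.

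SOX2, SOX9 and NES were higher in U251 after knock-down and less so or not in the other lines. In U251, SOX2 was 28.3% higher (24.1 to 32.7), SOX9 49.2% higher (41.1 to 57.8) and NES 53.98% higher (51.4 to 56.7). In LN-229, SOX2 was 5.59% higher with an interval that included 0 (-4.29 to 16.5), and NES differed by -2.22% (-3.66 to -0.75). In T98G, SOX9 was 11.3% higher (0.74 to 23.01) and NES differed by -9.35% with an interval that included 0 (-35.8 to 28.02). With libraries scaled to the summed CPM of the listed genes, the log2 ratios in U251 were 0.63 for SOX2 (0.36 as deposited), 0.84 for SOX9 (0.58) and 0.89 for NES (0.62). In T98G that of SOX9 was 0.38 (0.15 as deposited), and that of NES turned from -0.14 to 0.09. Relative to the median of T98G, the changes of log2(CPM + 1) were 0.33 for SOX9 and 0.12 for NES. Over the 3 lines the log2 differences were 0.14 for SOX2 (SE 0.15), 0.24 for SOX9 (SE 0.15) and 0.17 for NES (SE 0.15), with adjusted p (limma) of 0.656, 0.398 and 0.573. The U251 siControl library had the lowest depth and the highest share of RN7SL1, whose part in these values was not tested.

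GFAP and CHI3L1 each had most of their difference in 1 cell line. GFAP differed by -51.2% in U251 (-54.05 to -48.2), where its level was highest, and the intervals of LN-229 and T98G, at 3 to 31 reads, included 0. Its mean difference was -0.34 (SE 0.15, limma, unadjusted p = 0.0346, adjusted p = 0.233). CHI3L1 differed by -67.96% in T98G (-72.5 to -62.7), or -1.38 on the scale of log2(CPM + 1) and -1.19 relative to the median of that line, and was not above 2 reads elsewhere. Its mean difference was -0.47 (SE 0.16, limma, unadjusted p = 0.00554, adjusted p = 0.104), and without U251 it was -0.68 (adjusted p = 0.000115), a value that rests on T98G, since LN-229 had 0 and 2 reads.

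NFIA was lower in LN-229 (-21.7%, interval -27.05 to -15.9) and in U251 (-33.9%, -42.02 to -24.6), and higher in T98G (19.5%, 5.95 to 34.8). With libraries scaled to the summed CPM of the listed genes, the log2 ratios of the same lines, LN-229, U251 and T98G, were -0.40, -0.33 and 0.49 in place of -0.35, -0.60 and 0.26. The mean difference was -0.21 (SE 0.15, limma, adjusted p = 0.482). OLIG2 differed by -39.6% in T98G (-58.96 to -11.02, 66 and 42 reads) and was 18.6% higher in LN-229 with an interval that included 0 (-5.64 to 49.1). With libraries scaled to the summed CPM of the listed genes, its log2 ratio in T98G was -0.50 in place of -0.73. Relative to the median of T98G, its change of log2(CPM + 1) was -0.12 in place of -0.31. The size of the fall of OLIG2 in T98G thus depended on the scaling and on the 1 CPM added, while each of these values was negative.

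**Figure D3:**
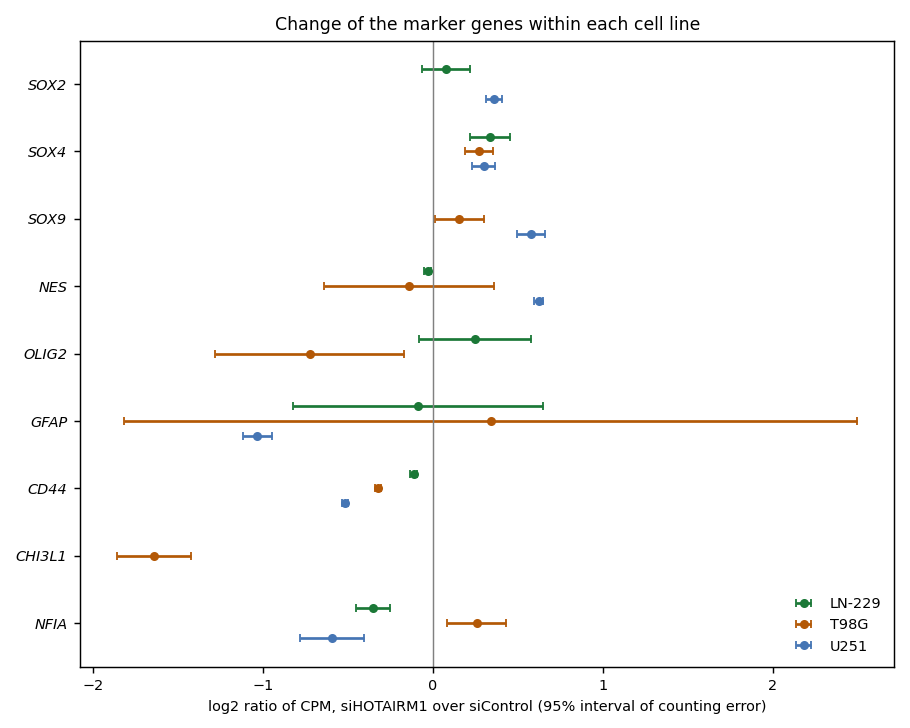
Log2 ratio of CPM (siHOTAIRM1 over siControl) of 9 marker genes in LN-229 (green), T98G (orange) and U251 (blue), with 95% intervals of counting error as bars; lines in which a gene had 3 or fewer reads in both libraries and PROM1 are left out. SOX4 lies above 0 and CD44 below 0 in each line, and NFIA lies below 0 in LN-229 and U251 and above 0 in T98G.

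The gene families of the markers were described next, from lists of symbols. Of 19 SOX genes, 11 were tested, and 9 differed between T98G and LN-229 (3 higher, 6 lower), 10 between U251 and LN-229 (5 higher, 5 lower) and 9 between U251 and T98G (6 higher, 3 lower), against 54.9%, 60.6% and 64.2% of all genes. SOX10, the factor that defines oligodendrocytes and neural crest cells, was at 81.5 and 112 CPM in LN-229, while T98G had 2 and 3 reads and U251 4 and 2 reads. The 2 lines with SOX9 thus had SOX10 at 2 to 4 reads, and the line with SOX10 had SOX9 at 2 and 3 reads. SOX21 was at 11.4 and 18.1 CPM in U251 and at 0 to 2 reads in LN-229 and T98G. SOX11 was at 26.8 and 28.8 CPM in LN-229, 11.7 and 9.25 CPM in T98G and 4 reads and 1 read in U251. SOX6 was the single SOX gene past the threshold on knock-down, at 13.2 and 18.4 CPM in LN-229, 1.22 and 2.63 CPM in T98G, and 0.555 and 1.40 CPM in U251, a mean rise of 0.60 (SE 0.14, limma, adjusted p = 0.0147) that was lost without T98G (adjusted p = 0.581), without U251 (0.0767) or with centred libraries (0.0917).

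All 4 NFI genes were tested, and none passed the threshold on knock-down, where 2.0% of all genes passed. NFIB was at 26.1 to 86.8 CPM over the 6 libraries. NFIX was at 5.97 and 9.66 CPM in LN-229, 12.3 and 14.0 CPM in T98G, and 26.4 and 36.6 CPM in U251, an order that NFIA did not share. NFIX was 1.90 higher in U251 than in LN-229 (log2, SE 0.18, limma, adjusted p = 1.60e-11), while NFIA was 1.24 lower (SE 0.19, adjusted p = 5.69e-07).

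Of 10 intermediate filament genes of neural cells, 5 were tested (NES, GFAP, VIM, SYNM and NEFL). All 5 were higher in U251 than in T98G, as were 41.0% of all genes, a share that depended on the scaling as given above. Against LN-229, 3 were higher and 1 lower in U251 (36.7% and 23.9% of all genes). In T98G, 0 were higher and 3 lower than in LN-229 (24.1% and 30.8% of all genes). Vimentin (VIM), the filament of immature glia and mesenchymal cells, was the one found in quantity in T98G, at 403 and 254 CPM, against 635 and 652 CPM in LN-229 and 1794 and 1309 CPM in U251. Synemin (SYNM), a partner of nestin and vimentin in filaments, was at 141 and 164 CPM in LN-229, 11.05 and 10.5 CPM in T98G and 44.04 and 61.6 CPM in U251. NEFL, a neurofilament subunit, was at 92.1 and 65.7 CPM in U251, 0 and 4 reads in LN-229 and 0 reads in T98G. None of the 5 passed the threshold on knock-down, where 2.0% of all genes passed.

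Of 13 markers of the oligodendrocyte lineage other than OLIG2, 8 were tested, and 6 of them were lower in T98G and 5 lower in U251 than in LN-229 (1 and 2 were higher), against 30.8% and 23.9% of all genes lower. Their summed level was 488 and 489.9 CPM in LN-229, 56.6 and 46.4 CPM in T98G and 96.6 and 110.3 CPM in U251. CSPG4 (NG2, a surface proteoglycan of oligodendrocyte progenitors) was at 319 and 284 CPM in LN-229 and at 3 to 14 reads in the other lines, a log2 difference of -8.02 for T98G and -8.10 for U251 (SE 0.18 for both, limma, adjusted p = 6.92e-29 and 9.91e-29). The myelin gene MAG was at 9.98 and 11.1 CPM in LN-229 and at 0 to 3 reads elsewhere. Other genes of the list were not highest in LN-229. The myelin gene MBP was higher in U251 than in LN-229 (log2 2.39, SE 0.14, limma, adjusted p = 9.36e-17) and than in T98G (log2 2.48, SE 0.14, limma, adjusted p = 3.84e-17). MYRF was 9.34-fold higher in T98G (7.19 to 12.3) and 9.67-fold higher in U251 (7.46 to 12.7) than in LN-229. The order of OLIG2, highest in LN-229, was thus shared by part of the list. On knock-down, 0 of the 8 passed the threshold, against 2.0% of all genes.

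Of 16 astrocyte markers other than GFAP, 11 were tested, and 6 were higher and 4 lower in U251 than in LN-229, and 6 higher and 3 lower in U251 than in T98G. Of all genes, 36.7% were higher and 23.9% lower in the former comparison, and 41.0% higher and 23.1% lower in the latter. Between T98G and LN-229, 5 of the 11 were higher and 4 lower in T98G, against 24.1% and 30.8% of all genes. The glutamate transporter gene SLC1A3 was at 66.3 and 61.8 CPM in U251, 18.3 and 13.1 CPM in T98G and 4.10 and 2.51 CPM in LN-229. CLU was highest in T98G, at 160 and 98.2 CPM, against 40.6 and 58.9 CPM in U251 and 2.76 and 2.04 CPM in LN-229. GLUL was also highest in T98G, at 80.2 and 54.4 CPM, against 28.2 and 31.05 CPM in LN-229 and 11.8 and 7.82 CPM in U251. S100B, by contrast, was highest in LN-229 (21.1 and 24.7 CPM), at 2.53 and 2.06 CPM in U251 and at 0 reads in T98G, and AQP4, the water channel of mature astrocytes, had 0 to 3 reads in all libraries. None of the 11 passed the threshold on knock-down, where 2.0% of all genes passed.

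**Figure D4:**
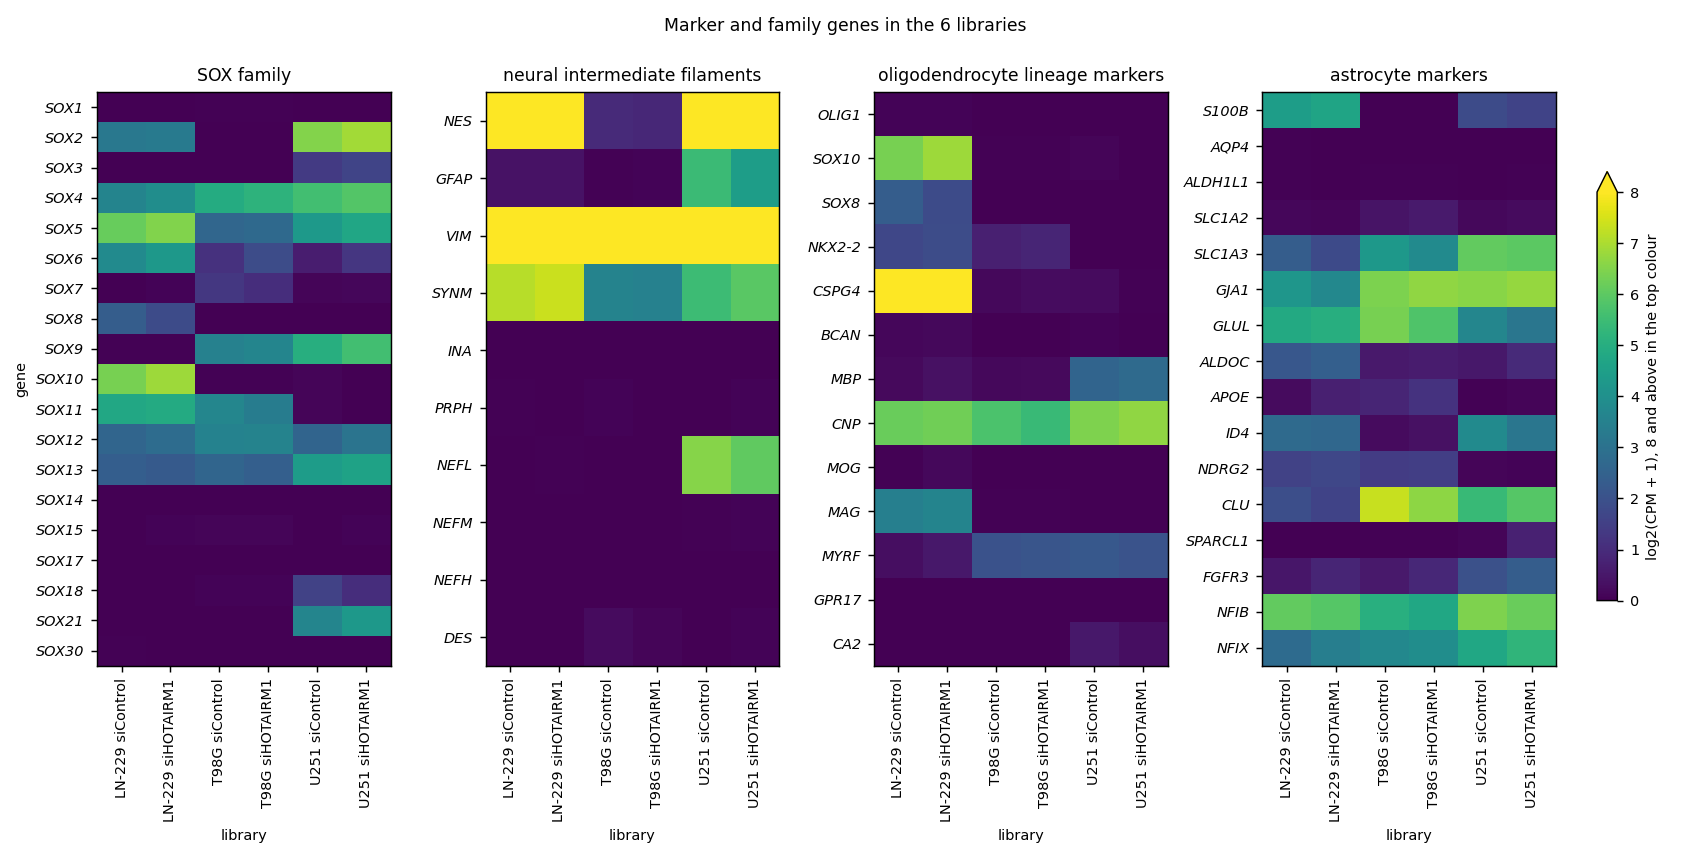
Level (colour, log2 of CPM + 1, with 8 and above in the top colour) of the genes of 4 lists (rows) in the 6 libraries (columns). SOX10, CSPG4 and MAG are bright in LN-229 and dark elsewhere, SOX9 is dark in LN-229, NES and SYNM are darkest in T98G, and NEFL, GFAP and SOX21 are bright in U251.

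All 19 mesenchymal glioma markers on the list, CD44 and CHI3L1 included, were tested. On knock-down 1 was lower and none higher, against 1.59% and 0.413% of all genes. The 1 lower was LGALS3, which encodes galectin-3, at 9.62 and 8.62 CPM in LN-229, 22.4 and 13.8 CPM in T98G, and 13.6 and 6.98 CPM in U251. It was lower in each line and fell by 0.56 on the log2 scale (SE 0.15, limma, adjusted p = 0.0449). The median difference of the 19 was -0.16 against -0.07 for all genes. Between the cell lines, 10 were higher and 6 lower in T98G than in LN-229, and 8 higher and 8 lower in U251 than in T98G. The shares of all genes were 24.1% higher and 30.8% lower, and 41.0% higher and 23.1% lower.

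Among 18 genes around CD44 (hyaluronan synthases, hyaluronidases, linker proteins and further ligands), 13 were tested. On knock-down SPP1 alone passed, where 2.0% of all genes passed. SPP1 encodes osteopontin, a ligand of CD44, and was at 72.0 and 45.9 CPM in LN-229, 12.2 and 7.84 CPM in T98G, and 322 and 178 CPM in U251. It was lower in each line, with differences of -36.2%, -35.6% and -44.9% (mean log2 difference -0.69, SE 0.14, limma, adjusted p = 0.00686). Among 7 genes of chitinase-like proteins and their receptors, 4 were tested. IL13RA2, a receptor for the CHI3L1 protein, was at 68.4 and 34.9 CPM in U251. In the other lines IL13RA2 had 0 to 11 reads, and it was thus found in another line than CHI3L1. Other genes of the list, TMEM219 and LGALS3, were found in all 3 lines, with mean levels of 12.1 and 18.1 CPM in T98G.

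Of 22 further markers of neural stem and progenitor cells, 15 were tested. In U251, 11 were higher and 2 lower than in T98G, against 41.0% and 23.1% of all genes, a split that depended on the scaling as given above. The 2 lower were L1CAM (log2 -4.00, SE 0.19, limma, adjusted p = 1.11e-19) and SOX11 (log2 -3.45, SE 0.18, limma, adjusted p = 1.13e-18). Against LN-229, 4 were higher and 9 lower in T98G (24.1% and 30.8% of all genes). In U251, 9 were higher and 5 lower than in LN-229 (36.7% and 23.9% of all genes). POU3F2, a neural progenitor factor, was at 19.1 and 19.7 CPM in LN-229, 2 and 5 reads in T98G and 40.2 and 51.1 CPM in U251, and FABP7, a fatty acid binding protein of radial glia, was at 58.2 and 35.7 CPM in U251, 2.95 and 2.06 CPM in LN-229 and at 0 reads and 1 read in T98G. On knock-down, where 2.0% of all genes passed, ID1 alone passed, a fall of 0.60 (SE 0.15, limma, adjusted p = 0.0323). Of 10 neuron markers, 5 were tested and SYT1 alone passed, a fall of 0.83 (SE 0.15, limma, adjusted p = 0.00138).

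The 5 list genes that passed on knock-down (SOX6, ID1, SYT1, LGALS3 and SPP1) changed in the same direction in all 3 lines. They were called by their mean change over these same lines, which favours such agreement. Each was the single call of its list, and 2.0% of all genes tested passed. All 5 calls were lost without T98G (adjusted p from 0.377 to 0.581), with libraries scaled to the summed CPM of the listed genes (0.104 to 0.265) and with libraries centred on their median (0.0744 to 0.178), and 1, that of SYT1, was kept without U251 (0.0261). Without the mean-variance trend the call of LGALS3 was lost (0.0564).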

How the data were processed

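The 10 genes and all lists were chosen with earlier results of these data known. The authors prepared libraries with TruSeq v2, aligned reads to hg38 with STAR 2.4.1d in Partek, quantified them on Ensembl release 84 by Expectation-Maximization and deposited CPM with 0.0001 added. Depth was derived from the CPM worth of 1 read. Of values under 50 reads, 85.4 to 87.1% were whole within 0.02 read, so count tests were not used. Single levels have 95% Wilson intervals, ratios between lines exact binomial intervals; intervals and the 3-read floor cover counting error only.

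Genes whose mean reached 1 CPM were tested on log2(CPM + 1), which understates changes of low genes, with limma 3.58.1 (R 4.3.3, mean-variance trend) with cell line and treatment as terms, Benjamini-Hochberg adjustment over 14294 genes and a threshold of 0.05; the method was tested on simulated data. Libraries of the same line deviated together (r 0.948 to 0.967 for 3 pairs, different lines -0.505 to -0.467). Deviations were taken from the mean of the 3 lines in each condition, which by itself makes values between different lines negative. The pairing comes from the cell line label. Named were the 10 genes, at most 4 genes per list and comparison with the largest difference past the threshold, and further family genes where needed. AQP4, NFIB, CLDN5, CDH5, CSF1R, PROM2, MYRF and TMEM219 were named after their values were seen. Of the listed genes, 2 are not reported here and were left out of the lists. Positions and lengths are from GENCODE 44. Scripts ran in Python 3.11.15 (scipy 1.17.1, pandas 2.3.3, numpy 2.4.6, matplotlib 3.10.9). Alternatives were no block, another pseudocount, no filter, median centring, no trend, a paired statistic and leaving out libraries or lines; scaling to the summed CPM of the listed genes was added after the data were seen.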

Additional observations from a re-analysis of the deposited data

Results flagged for a closer look

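The change of 2 marker genes had opposite directions in single cell lines. For NES the log2 ratio was -0.03 in LN-229 and 0.62 in U251, and the former minus the latter was -0.66. The change in LN-229 was small (-2.2%). That in U251 was taken against the siControl library with the lowest depth and the highest share of RN7SL1. For NFIA the log2 ratio in LN-229 minus that in T98G was -0.61, and that in T98G minus that in U251 was 0.85. With 1 library per cell line and condition, these differences were not tested.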

How the results depend on the processing

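On knock-down, 0 of the marker genes tested passed under each alternative other than leaving out cell lines, where the count was 0 to 1 (1 without U251, CHI3L1). Over all genes, 286 passed, against 683 with a pseudocount of 0.1, 41 with median centring (36.6% of them higher, against 20.6%), 185 without the trend, 149 without U251, 270 without LN-229, and 0 without T98G, without the block for the cell line, without the filter, with the paired statistic and with scaling to the summed CPM. The fit without the block ended each of the 5 calls of list genes and that of HOTAIRM1 (adjusted p of 1) and left the count of marker genes at 0. Between cell lines, 6 to 8 of the marker genes passed for T98G against LN-229 and 6 to 7 in each of the other comparisons. Of 344 alternative values of marker genes 8 reversed, none of them past the threshold. NES on knock-down was -0.050 without U251, and NES for U251 against LN-229 was -0.17 without U251 siHOTAIRM1 and -0.19 with scaling to the summed CPM. CHI3L1 for U251 against LN-229 was -0.11 with centring, -0.36 without LN-229 siControl and -0.30 without U251 siHOTAIRM1. CD44 and NFIA for U251 against T98G were 0.12 without U251 siHOTAIRM1 and 0.072 without T98G siHOTAIRM1. NFIA for T98G against LN-229 was -0.67 (adjusted p = 0.0544) without T98G siControl. A line left with 1 library was assumed to vary like the others. The cause of these shifts was not tested. Levels under 3 reads cannot be ordered.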

Other observations

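Over the 6 libraries, the genes whose centred profile of log2(CPM + 1) lay nearest to each marker were named by the root mean square difference, as a description. Nearest to SOX2 were AIF1L (0.26), BCHE (0.41) and CAPS (0.47), and nearest to SOX9 were HS3ST3B1 (0.13), MX1 (0.23) and CCDC144CP (0.26). SOX4 lay nearest to SLC45A4 (0.089), MERTK (0.11) and SCNN1A (0.13), and NES to PDE1C (0.52), COL11A1 (0.59) and TGFA (0.83). GFAP lay nearest to RP3-428L16.2 (0.22), UNC5D (0.26) and WBSCR17 (0.28), and CD44 to PDE4DIP (0.072), RPGRIP1L (0.077) and TSPAN17 (0.082). CHI3L1 lay nearest to CDKN2B (0.18), AKR1B1P7 (0.18) and AKR1B1P2 (0.19), the latter being pseudogenes whose reads may be shared with their parent gene, and NFIA to RPS6KA3 (0.17), IL32 (0.18) and RP11-466F5.8 (0.18).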
